A study of Mus musculus with 8 samples.

Results

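The CpGs described here are the 37 measured at Abca7, of 57 CpGs measured in all; they are the sites assigned to the amplicons Abca7_03 (16 CpGs), Abca7_04 (11 CpGs) and Abca7_05 (10 CpGs), and no methylation value was used to choose them. The other 20 CpGs of the panel belong to Ptk2b. Genomic DNA came from the dorsolateral prefrontal cortex of aged wild-type mice of the ICR stock, an outbred laboratory stock. Mice of 1 group were kept in a traffic tunnel, labelled as air pollution (4 samples), and those of the other on a campus, labelled as the control (4 samples). Both groups shared genotype, stock and tissue, and the study asked what a real traffic environment does to the aged brain. Whether each sample is a separate animal is not stated, so the p-values reflect only how much these samples vary, and part of that may be technical. The exact age of the mice, their sex and the length of the stay were not stated either.

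Abca7 encodes a membrane transporter of the ATP-binding cassette family that moves phospholipids, takes part in phagocytosis, and is expressed in neurons and microglia. Variants at its human counterpart carry risk of Alzheimer's disease, and methylation there has been studied in human brain for this reason. In mammals, CpGs around the start site of a gene with a CpG-rich promoter are usually free of methylation, while CpGs inside transcribed genes are often methylated, and the level can change over a short stretch of DNA at the border of a CpG-rich region. Cortical tissue mixes neurons and glia, so a change in the cells present and a change in methylation per cell cannot be told apart. Of 9 ABCA transporter and lipid-handling genes listed for comparison, 1 was on the panel (Abca7 itself), and of 12 Alzheimer risk genes 2 were (Abca7 and Ptk2b).

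The start site given with the data lies at position 79996493 of chromosome 10 (mm10). The RefSeq promoter of Abca7 (GRCm38.p6, the same assembly as mm10, plus strand, chr10:79996244-79996543) reaches from -249 to +50 bp of that start site and is shown because it holds most of Abca7_03. The 12 CpGs in capitals are those with a methylation value.
Abca7 promoter: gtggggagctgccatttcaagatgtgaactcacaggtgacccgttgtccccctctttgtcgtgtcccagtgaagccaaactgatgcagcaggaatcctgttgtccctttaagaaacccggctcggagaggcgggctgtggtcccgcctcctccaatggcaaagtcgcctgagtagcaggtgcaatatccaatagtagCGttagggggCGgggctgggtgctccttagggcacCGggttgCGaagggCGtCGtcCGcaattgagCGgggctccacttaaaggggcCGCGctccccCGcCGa

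All 12 deposited positions inside this window read CG in the RefSeq sequence. The window holds 19 CpGs in 300 bases, and 28.1% of the 32851 mouse promoter windows of the same length hold as many. Its GC content is 60.7%, against a median of 52.7% over those windows, and its observed over expected CpG ratio is 0.691, against a median of 0.384. Of the 7 CpGs without a value, 6 lie before the first base of the amplicon and the other lies at -85 bp. The GC-box letters GGGCGG, searched on both strands, occur once, from -45 to -40 bp, and enclose the measured CpG at -42 bp; 35.7% of the promoter windows hold these letters. The letters CCAAT, searched the same way, occur 2 times, both upstream of the first measured CpG (37.4% of windows hold them), and TATAAA does not occur in this window (13.6% of windows hold it). The 4 CpGs whose surroundings the results return to follow, with the CpG in capitals.
CpG at -17: cttagggcacCGggttgcgaag
CpG at 0: cgaagggcgtCGtccgcaattg
CpG at +14: cgcaattgagCGgggctccact
CpG at +37: aaaggggccgCGctcccccgcc

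Abca7_03 covers positions 79996441 to 79996602 (-52 to +109 bp), with 2 CpGs before the start of the RefSeq gene at 79996453 and 14 inside it, as are the CpGs of the other amplicons. Abca7_04 covers 79997368 to 79997531 (+875 to +1038 bp) and Abca7_05 covers 79997592 to 79997734 (+1099 to +1241 bp). In Abca7_03 the position within the amplicon increases with the genome position, whereas in Abca7_04 and Abca7_05 it decreases, so these amplicons are numbered from the strand opposite to the gene. Their genome positions could not be checked against sequence and may be off by a single base from the cytosine on the plus strand. Exons and introns are not given in the gene table used, so the intragenic CpGs are not assigned to either. Neighbouring CpGs lay 2 to 66 bp apart within amplicons (median 9 bp over 34 intervals), and the amplicons were separated by 766 bp between Abca7_03 and Abca7_04 and by 61 bp between Abca7_04 and Abca7_05.

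Abca7 was sparsely methylated in the aged cortex of both groups. Its CpGs fell into a low, even stretch and an uneven one that was higher on average. Methylation is the share of reads that keep a cytosine at a CpG, given here in percent. Over 8 samples, 11 of the 37 CpGs averaged under 1%, 20 averaged 1% to 2%, and 6 averaged 2% or more. Those 6 were all in Abca7_05. The single values ran from 0% (3 of 296 values) to 8.78%. Read depth is unknown, so no counting interval or upper limit is attached to any value.

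**Figure D1:**
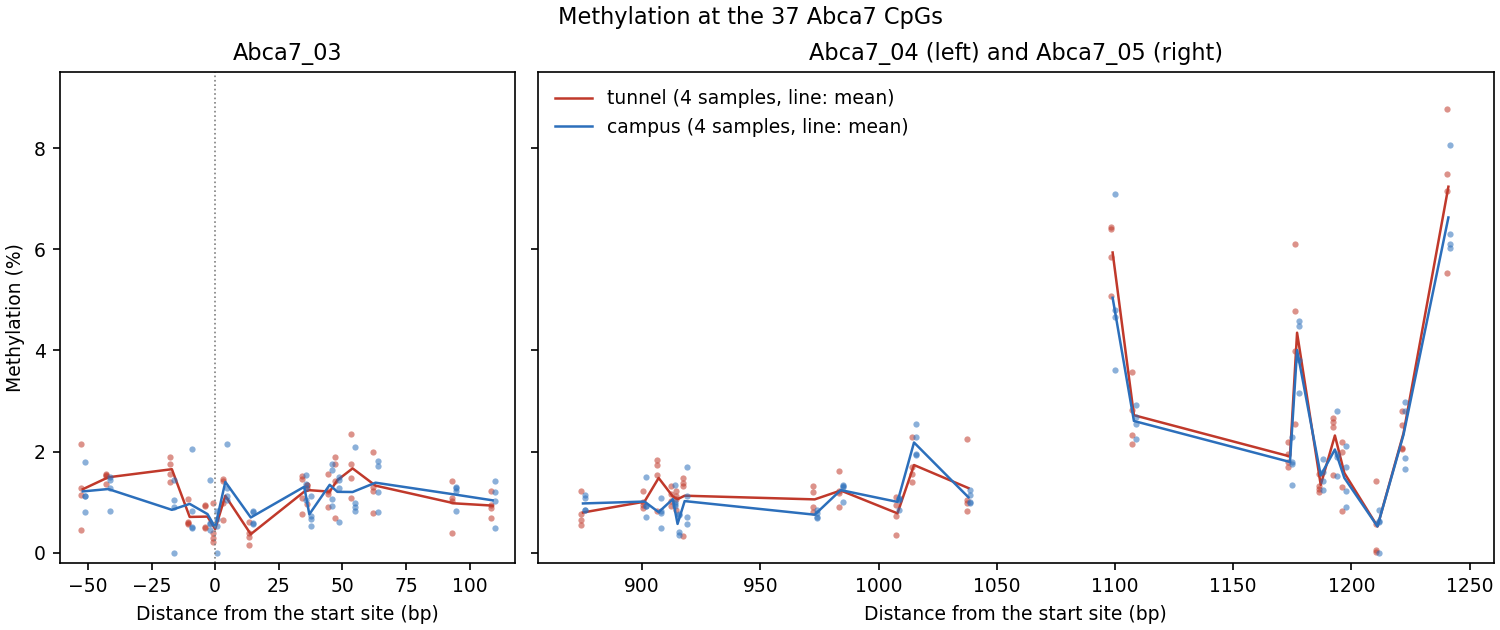
Methylation in percent at each of the 37 Abca7 CpGs against the distance from the start site in bp; points are single samples (tunnel and campus moved slightly apart), lines join the means of 4 samples, and the dotted line marks the start site. Values are at most 2.54% in Abca7_03 and Abca7_04 and reach 8.78% in Abca7_05.

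Around the start site, CpG means in Abca7_03 ran from 0.485% to 1.43%, with the lowest at the start site given with the data. The RefSeq gene start lies at -40 bp. The means fell at each CpG from -42 bp (1.38%) to 0 bp (0.485%), but single samples did not follow each step. The next CpG was lower in 4, 6, 5 and 5 of 8 samples, in order along the gene, and +4 bp was back at 1.26%. The CpG at -42 bp was above that at 0 bp in 8 of 8 samples, by 0.891 percentage points ± 0.454 (SD, n = 8). This pair was chosen after the values were seen. Averages over each side of the start site do not resolve a low mean at a single CpG. The 11 CpGs from the start site downstream averaged 1.09% ± 0.0591 and the 5 upstream of it averaged 1.09% ± 0.155 (SD, n = 8 each). The downstream minus upstream difference within samples was 0.000796 percentage points ± 0.189 (SD, n = 8), positive in 3 samples and negative in 5 (exact two-sided sign-flip test, p = 1; adjusted p = 1 over 2 within-sample comparisons). In tunnel samples this difference averaged -0.0781 ± 0.157 and in campus samples 0.0797 ± 0.204 (SD, n = 4 each).

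The CpG at the start site had the lowest mean of the panel, 0.485% ± 0.331, with +1211 bp close to it at 0.521% ± 0.489 (SD, n = 8 each). The order of these 2 turned without tunnel replicate 3 (0.525% at the start site and 0.391% at +1211 bp) or campus replicate 2 (0.554% and 0.475%). At 0 bp (position 79996493) methylation was 0.383%, 0.292%, 0.202% and 0.986% in tunnel samples and 0.827%, 0%, 0.667% and 0.522% in campus samples. The groups overlapped there, with means of 0.466% ± 0.354 in tunnel and 0.504% ± 0.358 in campus samples. This CpG was the lowest of the 16 in 3 of 8 samples. The CpG 14 bp downstream was the next lowest of Abca7_03, at 0.532% ± 0.233 (SD, n = 8). It stood below both of its measured neighbours, at +4 bp (1.26%) and +35 bp (1.26%), in 8 of 8 samples. The CpG at -42 bp, inside the GC-box letters, was at 1.38% ± 0.243, the second highest of Abca7_03. The edges of the amplicon, at -52 and +109 bp, were at 1.23% ± 0.53 and 0.984% ± 0.305. The highest CpG was at +54 bp with 1.43% ± 0.582 (SD, n = 8 each), and it led the amplicon in 2 of 8 samples, so the order among the higher CpGs of Abca7_03 was not stable between samples.

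Inside the gene, Abca7_04 stood at the level of the start-site amplicon. It averaged 1.11% ± 0.0601, against 1.09% ± 0.0476 in Abca7_03 (SD, n = 8 each). The within-sample difference of 0.0201 percentage points ± 0.0498 was positive in 6 of 8 samples and did not pass (exact two-sided sign-flip test, adjusted p = 0.305 over 3 amplicon pairs). With medians over CpGs it was -0.0316. A single CpG stood out in Abca7_04. The CpG at +1015 bp (position 79997508) averaged 1.96% ± 0.399 and was the highest of the 11 in 5 of 8 samples. It lay 7 bp from the CpG at +1008 bp, which averaged 0.892% ± 0.255, and was above it in 8 of 8 samples. The other CpG means of Abca7_04 lay between 0.814%, at +915 bp, and 1.23%, at +984 bp. The first and last CpGs of the amplicon were at 0.885% ± 0.241 (+875 bp) and 1.19% ± 0.448 (+1038 bp).

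The step in mean methylation from amplicon to amplicon came between Abca7_04 and Abca7_05. The first CpG of Abca7_05, at +1099 bp, averaged 5.49% ± 1.16, against 1.19% ± 0.448 at +1038 bp, the last CpG of Abca7_04 (SD, n = 8 each). The within-sample difference was 4.3 percentage points ± 1.07, ran from 2.62 to 5.85, and was positive in 8 of 8 samples. An exact two-sided sign-flip test gave p = 0.00781 (adjusted p = 0.0156 over 2 comparisons), and no smaller p is possible with 8 samples. The comparison of edges was chosen knowing that the amplicon means differ. With the 3 CpGs nearest the gap on each side it was 1.99 points, since the higher side then takes in +1108 and +1174 bp. Without the most methylated CpG of each amplicon, the difference between the amplicon means was 1.44 points (exact two-sided sign-flip test, adjusted p = 0.0117), against 1.8 with all CpGs. A rise as large as that between the edges also lay inside Abca7_05. From +1222 to +1241 bp it was 4.59 points ± 1.3 (SD, n = 8), positive in 8 of 8 samples. The step from Abca7_04 to Abca7_05 falls between 2 separately amplified products, and the part played by the amplification was not tested.

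The difference in this step between the groups was smaller than the spread between samples. The mean of Abca7_05 exceeded that of Abca7_04 by 2.18, 1.79, 2.32 and 1.21 percentage points in tunnel samples and by 1.46, 1.97, 1.74 and 1.75 points in campus samples. The tunnel samples held both the largest and the smallest step. The means were 1.88 ± 0.494 in tunnel and 1.73 ± 0.209 in campus samples (SD, n = 4 each), a difference of 0.143 points. Its exact 97.1% interval was -0.76 to 0.855, and a two-sided exact permutation test gave p = 0.6.

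**Figure D2:**
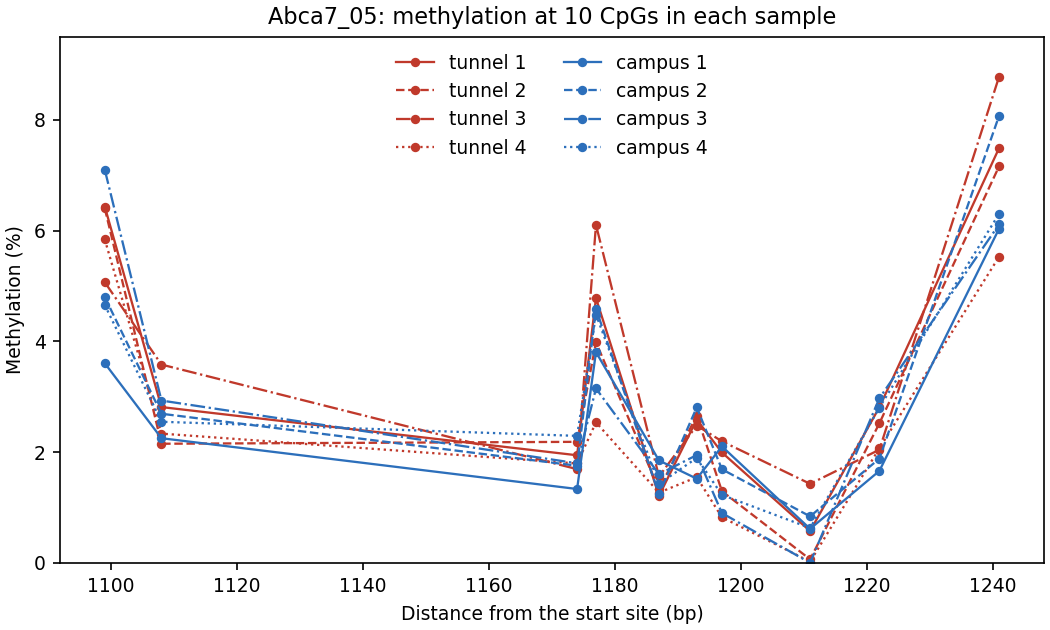
Methylation in percent at the 10 CpGs of Abca7_05 against the distance from the start site in bp, with 1 line per sample (tunnel and campus replicates 1 to 4). The peaks at +1099, +1177 and +1241 bp and the trough at +1211 bp recur across samples.

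Within Abca7_05, CpGs of higher and lower methylation lay close together. The most methylated CpG of the gene, at +1241 bp (position 79997734), was at 7.49%, 7.16%, 8.78% and 5.53% in tunnel samples and 6.03%, 8.07%, 6.11% and 6.3% in campus samples. The groups overlapped: tunnel replicate 3 was the highest of the 8 and tunnel replicate 4 the lowest. The CpG before it, at +1222 bp, averaged 2.34% ± 0.493. The CpG at +1177 bp (position 79997670) averaged 4.18% ± 1.09, against 1.85% ± 0.298 at +1174 bp (SD, n = 8 each), only 3 bp away, and was above it in 8 of 8 samples. On its other side, the CpG at +1187 bp was at 1.44% ± 0.221.

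The least methylated CpG of the amplicon was at +1211 bp. At +1211 bp (position 79997704) methylation was 0.573%, 0.063%, 1.43% and 0.0211% in tunnel samples and 0.614%, 0.839%, 0% and 0.629% in campus samples. It was the lowest of the 10 CpGs in 8 of 8 samples, 30 bp from the highest. Both groups held values near 0 and values above 0.5% there. Neighbouring CpGs of Abca7_05 differed in the same direction in all 8 samples at 6 of 9 intervals, compared with 1 of 10 in Abca7_04 and 2 of 15 in Abca7_03. The median difference between neighbouring CpG means was 1.82 percentage points in Abca7_05, 0.266 in Abca7_04 and 0.254 in Abca7_03. Distance between neighbours went with little of this: over the 34 intervals, Spearman's rho between spacing and absolute difference in level was 0.147, a description over CpGs that share samples and amplicons.

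The order of the Abca7_05 CpGs held in every sample at only 2 of its steps. From highest to lowest it was +1241 (6.93% ± 1.13), +1099 (5.49% ± 1.16), +1177 (4.18% ± 1.09), +1108 (2.66% ± 0.461), +1222 (2.34% ± 0.493), +1193 (2.18% ± 0.514), +1174 (1.85% ± 0.298), +1197 (1.53% ± 0.542), +1187 (1.44% ± 0.221) and +1211 (0.521% ± 0.489; SD, n = 8 each). The third stood above the fourth, and the ninth above the tenth, in 8 of 8 samples. The first exceeded the second in 6 of 8 samples, by 1.44 points ± 1.65, and the second exceeded the third in 6 of 8, by 1.31 points ± 1.8. The CpG at +1099 bp thus did not separate from +1241 or +1177 bp beyond the spread. Within each sample, however, +1241 bp was above +1177 bp. From the fourth to the ninth, neighbours in the order kept it in 4 to 6 of 8 samples.

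The SD between samples was widest at +1099, +1241 and +1177 bp, the CpGs of highest mean. Relative to the level, the spread was widest at +1211 bp and at the start site, the CpGs of lowest mean. Over whole amplicons, Spearman's rho between CpG mean and SD was 0.697 in Abca7_05, 0.3 in Abca7_03 and 0.136 in Abca7_04. Within Abca7_03 it was 0.827 over the 11 CpGs from the start site downstream and 0 over the 5 upstream of it. The SD over 8 samples was 1.16 percentage points at +1099 bp, 1.13 at +1241 bp and 1.09 at +1177 bp, and between 0.171 and 0.603 at the other 34 CpGs. The coefficient of variation had a median of 31.1% over the 37 CpGs and ran from 15.4% at +1187 bp to 94% at +1211 bp. At the CpG at the start site it was 68.2%. The CpG-to-CpG pattern held 88.9% of the sum of squares of the single values in Abca7_05, 47.2% in Abca7_04 and 36.2% in Abca7_03; the remainder is difference between samples and measurement error, which cannot be told apart here. The SD was wider among tunnel samples at 19 of the 37 CpGs: 6 of 16 in Abca7_03, 8 of 11 in Abca7_04 and 5 of 10 in Abca7_05. The median SD over CpGs was 0.354 points in tunnel and 0.362 points in campus samples. No test was made of these spreads.

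**Figure D3:**
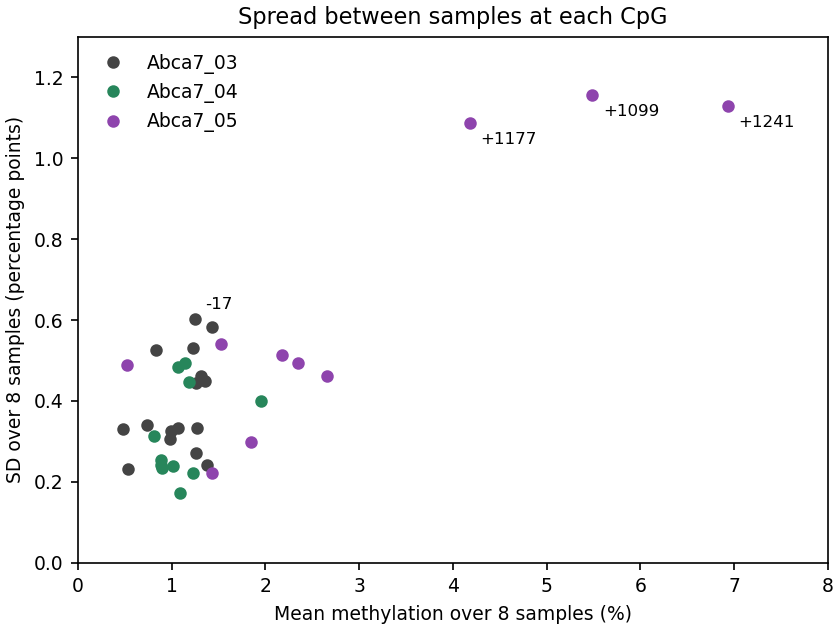
Standard deviation over 8 samples in percentage points against mean methylation in percent, 1 point per Abca7 CpG, coloured by amplicon. The CpGs at +1099, +1177 and +1241 bp lie apart at an SD of 1.09 to 1.16 points, and -17 bp has the widest spread of the others.

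No pair of Abca7_05 CpGs passed a test for varying together from sample to sample. Tunnel replicate 3 ranked first among the 8 samples at 5 of the 10 CpGs, and tunnel replicate 4 and campus replicate 1 ranked last at 3 and 4 of them. Of the 45 pairs of CpGs, 28 had a positive Pearson's r over the 8 samples and 17 a negative one (median 0.136), and 8 had an exact permutation p under 0.05. The pair of smallest p was +1177 and +1241 bp, with r = 0.886 (exact permutation p = 0.00253, adjusted p = 0.0837 over 45 pairs) and Spearman's rho = 0.929 (exact permutation p = 0.00223, adjusted p = 0.1). Without the 2 samples farthest from the median at +1177 bp, tunnel replicates 3 and 4, r was 0.678. These pairs were examined after the values were seen, and CpGs of 1 amplicon share their template molecules.

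No CpG of Abca7 passed the test for a difference between tunnel and campus samples. Each CpG was tested with limma after an arcsine square root transformation, adjusting over all 57 CpGs at a threshold of 0.05. The test called 0 of the 37 Abca7 CpGs, and 0% of the 57 CpGs of the panel, and the smallest adjusted p was 0.523 (limma). At an unadjusted p under 0.05, limma gave 4 of the 37 Abca7 CpGs (10.8%), all higher in tunnel, against 8.77% of the panel in either direction and 7.02% higher in tunnel; the exact permutation test per CpG gave 1. The limma count of 4 was 1 without tunnel replicate 3, and 2 without any other single tunnel sample or without campus replicate 1 or 2. The groups failed to overlap at 1 of the 37 CpGs (2.7%), against 1.75% of the panel. At 21 of the 37 CpGs (56.8%) the higher mean was that of tunnel samples, against 49.1% of the panel. The difference was smaller than its own standard error at 24 of the 37. It ran from -0.445 percentage points at +1015 bp to 0.895 at +1099 bp, with a median of 0.0432.

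**Figure D4:**
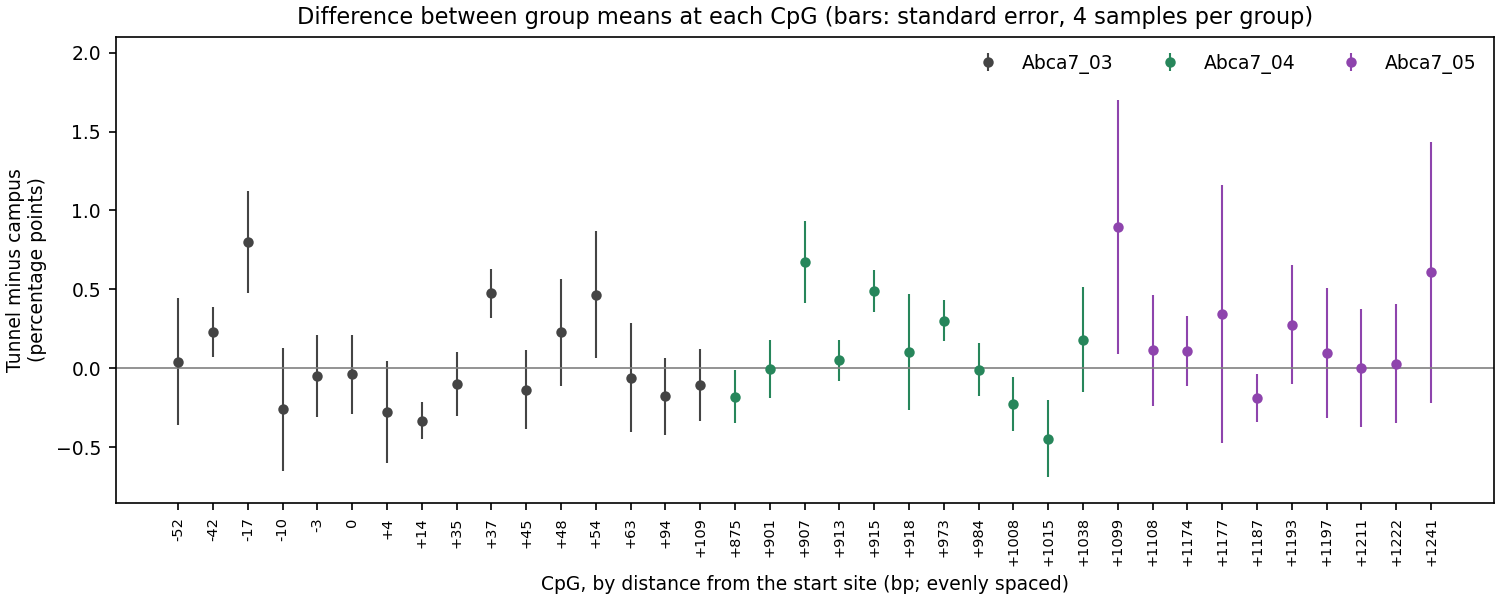
Difference between the tunnel and campus means in percentage points at each of the 37 Abca7 CpGs in order of distance from the start site (evenly spaced); bars are the standard error of the difference with 4 samples per group. Most bars cross 0, and the differences run from -0.445 to 0.895 points.

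In Abca7_03 the largest differences in either direction lay between -17 and +54 bp. At -17 bp (position 79996476) methylation was 1.4%, 1.75%, 1.56% and 1.9% in tunnel samples and 0.909%, 0%, 1.44% and 1.04% in campus samples. Of the 4 tunnel samples 3 were above every campus sample, and campus replicate 2 was listed at 0. The difference was 0.803 percentage points (limma, adjusted p = 0.523) and 0.521 without campus replicate 2. At +37 bp (position 79996530) methylation was 1.34%, 0.972%, 1.35% and 1.29% in tunnel samples and 0.527%, 1.12%, 0.718% and 0.672% in campus samples. Here too 3 tunnel samples exceeded each of the campus samples, while tunnel replicate 2 lay below campus replicate 2 (difference 0.477 points; limma, adjusted p = 0.554). The CpG 2 bp upstream of it, at +35 bp, pointed the other way, with 1.21% ± 0.352 in tunnel and 1.3% ± 0.204 in campus samples (limma, adjusted p = 0.977).

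At +14 bp (position 79996507) methylation was 0.319%, 0.39%, 0.606% and 0.152% in tunnel samples and 0.826%, 0.799%, 0.565% and 0.597% in campus samples. There 3 tunnel samples were below every campus sample and the fourth lay inside the campus range (difference -0.33 points; limma, adjusted p = 0.905). At +54 bp (position 79996547) methylation was 1.47%, 1.76%, 1.08% and 2.35% in tunnel samples and 0.906%, 2.09%, 0.822% and 0.98% in campus samples. The campus range enclosed 3 of the 4 tunnel values, through campus replicate 2. The difference of 0.467 points (limma, adjusted p = 0.905) was 0.764 without campus replicate 2 and 0.239 without tunnel replicate 4. At the first CpG, -52 bp, the means were 1.26% ± 0.692 in tunnel and 1.21% ± 0.417 in campus samples, and at the last, +109 bp, they were 0.931% ± 0.221 in tunnel and 1.04% ± 0.402 in campus samples (SD, n = 4 each). As a whole Abca7_03 had 6 CpGs with the higher mean in tunnel and 10 with the higher mean in campus samples.

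In Abca7_04 the 2 CpGs of smallest p lay 8 bp apart, with a CpG between them that showed little difference. At +907 bp (position 79997400) methylation was 0.82%, 1.74%, 1.83% and 1.53% in tunnel samples and 0.79%, 0.496%, 1.09% and 0.834% in campus samples. Tunnel replicate 1 lay inside the campus range and the other tunnel samples above it (difference 0.675 points; limma, adjusted p = 0.523). At +915 bp (position 79997408) methylation was 0.846%, 1.22%, 1.11% and 1.06% in tunnel samples and 0.418%, 0.355%, 0.768% and 0.738% in campus samples. All 4 tunnel samples were above all 4 campus samples, by a gap of less than 0.1 points at the closest (difference 0.489 points; limma, adjusted p = 0.554). The CpG between them, at +913 bp, was at 1.11% ± 0.172 in tunnel and 1.06% ± 0.193 in campus samples (SD, n = 4 each).

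The largest negative difference of the gene was at the most methylated CpG of Abca7_04. At +1015 bp methylation was 2.29%, 1.7%, 1.39% and 1.55% in tunnel samples and 2.54%, 2.3%, 1.94% and 1.95% in campus samples. Of the tunnel samples 3 were below every campus sample and tunnel replicate 1 was inside the campus range (difference -0.445 points; limma, adjusted p = 0.905). At the ends of the amplicon the means were 0.795% ± 0.296 in tunnel and 0.974% ± 0.161 in campus samples at +875 bp, and 1.28% ± 0.656 in tunnel and 1.1% ± 0.126 in campus samples at +1038 bp (SD, n = 4 each). At that last CpG tunnel replicate 2, at 2.25%, stood apart from the other 7 samples.

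In Abca7_05 the difference at the first CpG was the largest of the gene in percentage points, and most of the others were small. The median absolute difference was 0.151 points over the CpGs of Abca7_05, compared with 0.182 in Abca7_04 and 0.203 in Abca7_03. At +1099 bp (position 79997592) methylation was 6.43%, 6.4%, 5.07% and 5.84% in tunnel samples and 3.6%, 4.8%, 7.1% and 4.66% in campus samples. The highest and the lowest of the 8 values were both campus samples (difference 0.895 points; limma, adjusted p = 0.905), and leaving out campus replicate 1 made the difference 0.417, leaving out campus replicate 3 made it 1.58. At +1241 bp the means were 7.24% ± 1.34 in tunnel and 6.63% ± 0.968 in campus samples, and at +1211 bp 0.521% ± 0.654 in tunnel and 0.52% ± 0.362 in campus samples (SD, n = 4 each). The lower mean belonged to tunnel samples at 1 of the 10 CpGs, +1187 bp (position 79997680), with 1.21%, 1.33%, 1.56% and 1.27% in tunnel samples and 1.85%, 1.24%, 1.6% and 1.43% in campus samples. These ranges overlapped (difference -0.188 points; limma, adjusted p = 0.905), and leaving out campus replicate 1 made the difference -0.0814, leaving out campus replicate 2 made it -0.284. The profile of Abca7_05 over its 10 CpGs was nearly the same in both groups, with a Pearson's r of 0.997 between tunnel and campus means; it was 0.628 over the 11 CpGs of Abca7_04 and 0.6 over the 16 of Abca7_03, where the CpG means span a narrower range.

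**Figure D5:**
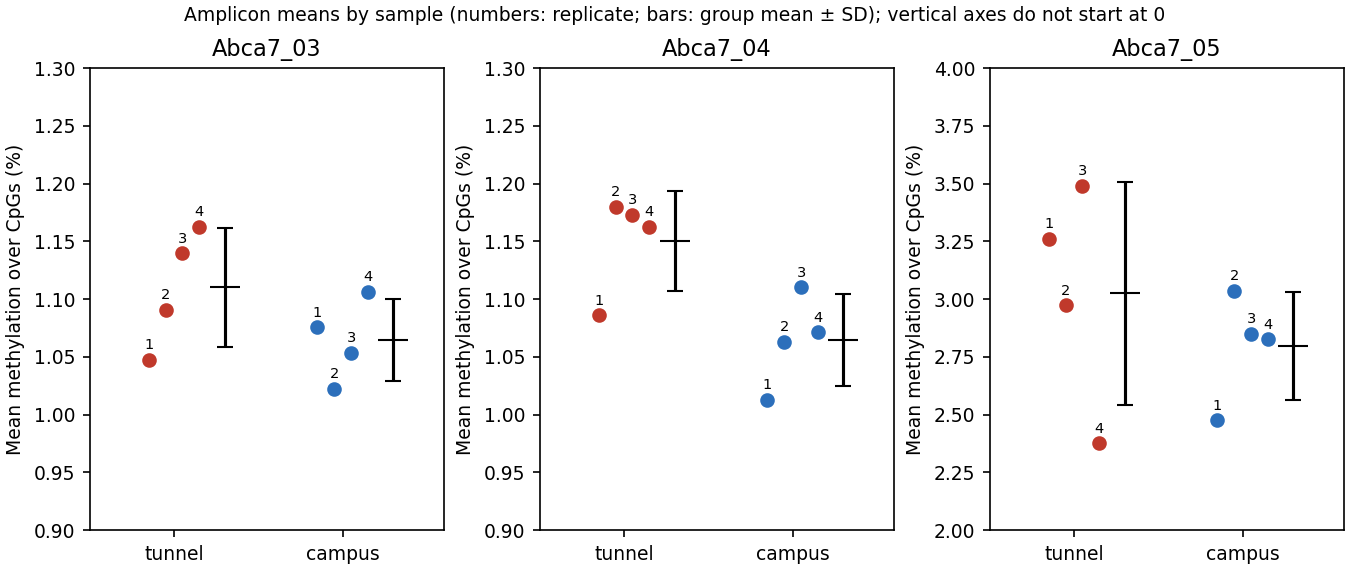
Mean methylation over CpGs in percent for each sample and amplicon (16, 11 and 10 CpGs), tunnel left and campus right; numbers are replicates and bars the group mean with its SD (n = 4). The groups overlap in each amplicon, and the vertical axes do not start at 0.

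Averaged over CpGs, no amplicon passed its test for a difference between the groups, and the samples did not keep the same order from one amplicon to the next. In Abca7_03 the sample means were 1.05%, 1.09%, 1.14% and 1.16% in tunnel samples and 1.08%, 1.02%, 1.05% and 1.11% in campus samples. In Abca7_04 they were 1.09%, 1.18%, 1.17% and 1.16% in tunnel samples and 1.01%, 1.06%, 1.11% and 1.07% in campus samples. In Abca7_05 they were 3.26%, 2.97%, 3.49% and 2.38% in tunnel samples and 2.48%, 3.04%, 2.85% and 2.83% in campus samples. Tunnel replicate 4 was thus the highest of the 8 in Abca7_03 and the lowest in Abca7_05. With adjustment over these 3 amplicons, the exact two-sided permutation test gave an adjusted p of 0.3 for Abca7_03, 0.171 for Abca7_04 and 0.429 for Abca7_05. A single amplicon cannot reach less than 0.0857 in this design. The exact 97.1% intervals of the differences, -0.0588 to 0.14, -0.0244 to 0.167 and -0.661 to 1.02 percentage points in the same order, leave room for differences in either direction. Over all 37 CpGs the sample means were 1.66%, 1.63%, 1.79% and 1.49% in tunnel samples and 1.44%, 1.58%, 1.56% and 1.56% in campus samples. Tunnel replicate 4 lay inside the campus range and the other 3 tunnel samples above it. The groups averaged 1.64% ± 0.121 in tunnel and 1.53% ± 0.0654 in campus samples (SD, n = 4 each; exact two-sided permutation p = 0.2). Without tunnel replicate 4 the difference of 0.107 points was 0.157, with the smallest exact permutation p that 3 against 4 samples allow, 0.0286, and without tunnel replicate 3 it was 0.0586.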

How the data were processed

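CpG methylation was measured by MethylTarget sequencing (as a method, PCR of chosen regions from bisulfite-treated DNA; no label covers the bisulfite step) in 4 tunnel and 4 campus samples; the indexed products were pooled in equal amounts, per the labels' protocols. The authors deposited 1 methylation fraction per CpG and sample, printed here as percent, with amplicon, position and distance to the start site, per the file headers. mm10 and hg19 are named in the submitters' processing notes; 12 of 12 Abca7 positions covered by RefSeq sequence read CG in GRCm38. The aligner, caller, filters, conversion rate and coverage were not given in the sources used here. Conversion failure and 5-hydroxymethylcytosine cannot be told from methylation. There were 0 missing values.

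CpGs were tested with limma 3.58.1 (R 4.3.3; arcsine square root, mean-variance trend, group as the only term, Benjamini-Hochberg over 57 CpGs, threshold 0.05) and means over CpGs with exact permutation or sign-flip tests (Python 3.11.15, numpy 2.4.6). Limma and the permutation test were tried on simulated data, and the sign-flip test on a set of fixed values. The differences simulated for limma were larger, relative to the level, than any seen here. Named CpGs were the 5 of smallest p, the largest differences in each direction, the extremes of level and the edges of each amplicon, and the CpG at the start site; other CpGs printed were chosen after their values were seen. Members, lists, tests and alternatives were chosen with earlier results of these data known. No 2 samples shared a value above 0 (28 pairs).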

Additional observations from a re-analysis of the deposited data

Results flagged for a closer look

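Dixon's ratio was taken in 44 sets of 4 samples, namely the gene and amplicon means, the step, the difference across the start site and 16 single CpGs, separately for tunnel and campus. It set 1 sample apart in 6 of them. About 1 in 20 sets, 2.2 in all, would be set apart by chance if the sets were independent, unselected and normally spread. These sets share CpGs, and the single CpGs were mostly named from these same values, so 6 cannot be weighed against 2.2. Tunnel replicate 2 was set apart in 3. Its downstream minus upstream difference in Abca7_03 was the lowest at -0.312 percentage points, while the other tunnel samples lay at -0.0183 to 0.0278. At +37 bp it was the lowest at 0.972%, with the rest of the tunnel group at 1.29% to 1.35%, and at +1038 bp the highest at 2.25%, with the rest at 0.833% to 1.05%. Campus replicate 2 was set apart in another 2. It was the highest at +54 bp with 2.09%, the rest of the campus group lying at 0.822% to 0.98%, and the highest at +1241 bp with 8.07%, the rest lying at 6.03% to 6.3%. Campus replicate 1 had the lowest mean over the 37 CpGs, 1.44%, with the rest of its group at 1.56% to 1.58%.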

How the results depend on the processing

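Of 220 alternative values with a test, 211 kept their sign and stayed on the same side of the threshold, 8 changed sign and 1 newly passed. These include alternatives for 9 CpGs named for large differences or small p in these data, so their kept sign was partly fixed in advance. Between groups, a single amplicon could not pass (smallest adjusted p 0.0857, exact permutation test). Nor could a mean difference with the replicate block (smallest p 0.125, exact sign-flip test). The count of 211 is therefore no measure of robustness. The steps from Abca7_04 and Abca7_03 up to Abca7_05 and the step between their edges passed under each alternative run; with 1 sample left out they ranged from 1.73 to 1.89, 1.75 to 1.91 and 4.08 to 4.54 points. The site test called 0 Abca7 CpGs under each alternative (the exact test per CpG could call none unless 33 CpGs reached its smallest p). The Abca7 mean difference of 0.107 points ranged from 0.0586 to 0.157 with 1 sample left out; leaving out tunnel replicate 4 gave the 0.157 and brought the p to 0.0286 (exact permutation test), as low as that test can go. Values that changed sign passed with neither sign; the cause was not tested. With medians over CpGs, tunnel minus campus for the step from Abca7_04 to Abca7_05 was -0.0723 points, Abca7_04 minus Abca7_03 was -0.0316 and downstream minus upstream in Abca7_03 was -0.00532. Without the most methylated CpG of each amplicon, Abca7_04 minus Abca7_03 was -0.0418. With 1 sample left out, the step difference between groups ranged from -0.00502 (without tunnel replicate 3) to 0.364, and downstream minus upstream from -0.0385 to 0.0454 (below 0 without tunnel replicate 3, campus replicate 2 or campus replicate 3). No sign of pairing by replicate number was seen. Same-numbered deviations correlated at -0.401 to -0.00793 over the panel, against -0.304 to 0.282 for the 12 other tunnel-campus pairs. Among the 8 samples, 0 correlated best with their own number. These correlations cannot exclude a pairing or a shared batch in the design. With the replicate block limma called 0 CpGs (2 at an unadjusted p under 0.05, against 4), the mean differences kept their values, and their exact sign-flip test cannot go below p = 0.125. No CpG of Abca7_03 or Abca7_04 had a mean of 2% or more, so a filter on CpG means of 2% to 98% gave no value there, and a coverage minimum could not be applied. Over the 6 CpGs of Abca7_05 that it kept, tunnel minus campus was 0.378 points, compared with 0.229 over its 10 CpGs (0.0733 without tunnel replicate 3 to 0.446 without tunnel replicate 4). Unknown depth limits every value here, most of all those near 0.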
